A study of Mus musculus with 16 samples.

Results

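The genes described here are 9 antiviral genes of the mouse: Ifit1, Ifit2, Ifit3, Rsad2, Cmpk2, Isg15, Usp18, Mx1 and Mx2. They were chosen by name, as every gene of the deposited annotation whose gene name equals one of these symbols. All 9 listed symbols were found, each with 1 gene model, among 50578 genes in the annotation. They lay on 5 chromosomes and had 20 transcripts in all, and 5 of them had a single transcript.

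The study covered 16 libraries of mouse bone-marrow-derived macrophages, grown from marrow for 7 days with the growth factor M-CSF at 50 ng per ml, with and without lipopolysaccharide (LPS), a component of Gram-negative bacteria. Standard RNA-seq was made from wild-type C57BL/6 cells, with 3 untreated and 3 LPS samples, and ribosome profiling after cycloheximide (CHX in the sample names) from wild-type C57BL/6 cells, with 2 untreated and 2 LPS samples. RiboTag libraries, which recover RNA bound to a tagged ribosomal protein, came from LysM-Cre x RiboTag cells, with 2 samples each for no treatment, for 6 h and for 24 h of LPS. In these cells the tag is present only where LysM-Cre, a myeloid driver, has acted, and the hours of LPS for the other 2 assays are not given per sample. Values per library were not analysed here, so the depth is unknown, no marker of the cells was checked and the response of these genes to LPS was not measured. The measurements below are positions and lengths of gene models in build mm10. They come from a single annotation, so they have no replicates and no error between samples, and no test was made.

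Type I interferons bind a receptor whose kinases activate a transcription factor complex that holds IRF9. The complex binds the interferon-stimulated response element (ISRE), a promoter sequence shared by many antiviral genes. LPS reaches the same genes in macrophages through Toll-like receptor 4, whose signal induces interferon beta. IFIT proteins bind viral RNA or proteins of the translation machinery. Viperin, the product of Rsad2, is a radical SAM enzyme that makes a chain-terminating nucleotide, and Cmpk2 encodes a nucleotide kinase. ISG15 is a ubiquitin-like protein joined to other proteins, USP18 removes it and also restrains the interferon receptor, and MX proteins are dynamin-like GTPases.

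Short stretches before the starts of 5 genes are shown first, because the results on promoters turn on them. Each is taken from the RefSeq promoter windows of build GRCm38.p6, is written 5′ to 3′ along the gene's own strand, and lies outside every exon of the deposited annotation. Capitals mark matches of the core GAAANNGAAA on either strand, so that a match on the other strand reads TTTCNNTTTC. The Ifit1 stretch holds both of its matches (chr19:34640784-34640813, plus strand). For Ifit3 each match is shown with 10 bases on either side, as site a (chr19:34583363-34583392) and site b (chr19:34583397-34583426, both plus strand). The same letters stand before Ifit3b (chr19:34607759-34607788 and chr19:34607793-34607822, plus strand). The Isg15 stretch is the 150 bases before the start (chr4:156200819-156200968, minus strand), and so is that of Rsad2 (chr12:26456453-26456602, minus strand).
Ifit1: gTTTCACTTTCcagtctcagTTTCAGTTTC
Ifit3 and Ifit3b, site a: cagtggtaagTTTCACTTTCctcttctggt
Ifit3 and Ifit3b, site b: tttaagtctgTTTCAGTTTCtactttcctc
Isg15: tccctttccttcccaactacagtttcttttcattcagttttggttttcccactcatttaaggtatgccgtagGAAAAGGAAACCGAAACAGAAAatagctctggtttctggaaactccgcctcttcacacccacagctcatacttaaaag
Rsad2: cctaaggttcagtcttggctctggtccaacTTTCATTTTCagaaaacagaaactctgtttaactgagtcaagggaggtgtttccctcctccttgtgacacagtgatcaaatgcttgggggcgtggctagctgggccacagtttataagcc

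The start used by a promoter window is not always the outer end of the gene in RefSeq. The RefSeq gene table begins Ifit3 410 bases, Ifit3b 427 bases, Ifit2 144 bases and Cmpk2 98 bases before the start of the first window, so the stretches shown for Ifit3 and Ifit3b lie inside those gene spans. The Ifit1 stretch lies inside the RefSeq spans of Ifit1bl2, which ends at 34640827, and of Ifit1bl1, which ends at 34662981. The RefSeq span of Ifit1bl1 begins at 34592888, so it also covers the stretches shown for Ifit3b. For Ifit1, Rsad2 and Isg15 the gene and the window have the same start.

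The promoter windows hold 250 bases before and 50 from the window's start site on. They were matched by symbol for 6 of the 9 genes; Usp18, Mx1 and Mx2 had no entry. At least 1 ISRE core was present in 4 of the 6, namely Ifit1, Ifit3, Rsad2 and Isg15, while 3.99% of all 27025 genes with a window held one. Among the other genes of a list of 108 interferon-stimulated genes, 36 of the 80 with a window held the core (45%). The 36 are not all separate from the members. The matches of Ifit1bl2 are the same bases as those of Ifit1, and the sites of Ifit3b repeat those of Ifit3. The 4 members with the core had 8 matches between them. All 8 fell from position -156 to position -57, where 0 is the start site of the window.

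Isg15 carried the densest arrangement. Its 3 matches began at -78, -72 and -66, each overlapping the next, and together covered 22 bases in the sense direction. Ifit1 had 2 matches at -104 and -85. Ifit3 had 2 matches at -156 and -122. Both pairs read on the opposite strand, as did the single match of Rsad2 at -120. Ifit2 and Cmpk2 had no exact match in their windows, of which Ifit2 had 2 and Cmpk2 had 1.

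The other motifs searched occurred in fewer of these windows. The gamma-activated sequence TTCNNNGAA occurred once, at -241 of the first Ifit2 window, and 9.55% of all genes had it. The TATA element TATAAA occurred once, at -10 of Rsad2 on the opposite strand, and 15.7% of all genes had it. Both were searched on both strands, and neither match overlapped an ISRE core.

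**Figure D1:**
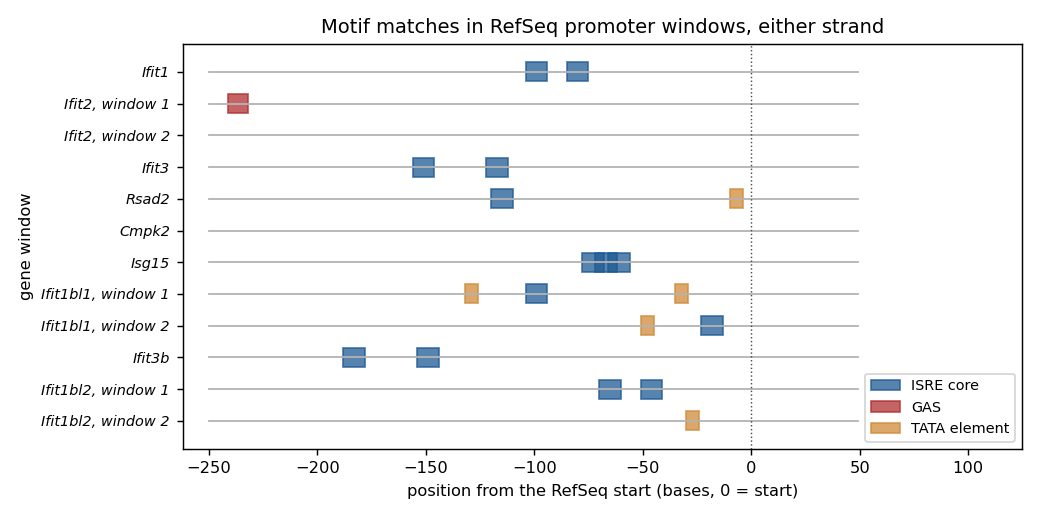
Positions of matches to the ISRE core, the gamma-activated sequence (GAS) and the TATA element in RefSeq promoter windows (one line per window, x axis in bases from the window's RefSeq start site at 0). The Isg15 matches overlap between -78 and -57, and Ifit3 and Ifit3b show the same spacing shifted by 32 bases.

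Signalling and conjugation genes were compared with the same measure. Of the 10 genes in a list for interferon signalling (receptors, kinases, transcription factors and the suppressor Socs1), 9 had a window and 2 held the core, namely Stat2 and Socs1. None of Uba7, Ube2l6, Herc6 and Trim25, the enzymes of a list for ISG15 conjugation, held it, and all 4 had a window. The 7 other dynamin-family genes had a window each and 0 held the core. Over all genes with a window 3.99% held it, and lists of 4 and 7 genes are too small to tell 0 from that share.

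The 3 Ifit members belong to a cluster on chromosome 19. The annotation placed 6 Ifit genes there in 99316 bases, in the order Ifit2, Ifit3, Gm14446, Ifit3b, 2010002M12Rik and Ifit1. By gene ID, Gm14446 is now named Ifit1bl1 and 2010002M12Rik is Ifit1bl2. The strands divided as 4 plus and 2 minus, with the 3 members on the plus strand, and 0 other Ensembl genes lay between them. Ifit2 ran from 34550694 to 34576419, Ifit3 from 34583531 to 34588731 and Ifit1 from 34640871 to 34650009. The cluster was bordered by Lipa, a lysosomal lipase gene 23219 bases from Ifit2, and by Slc16a12, a transporter gene 18393 bases from Ifit1.

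**Figure D2:**
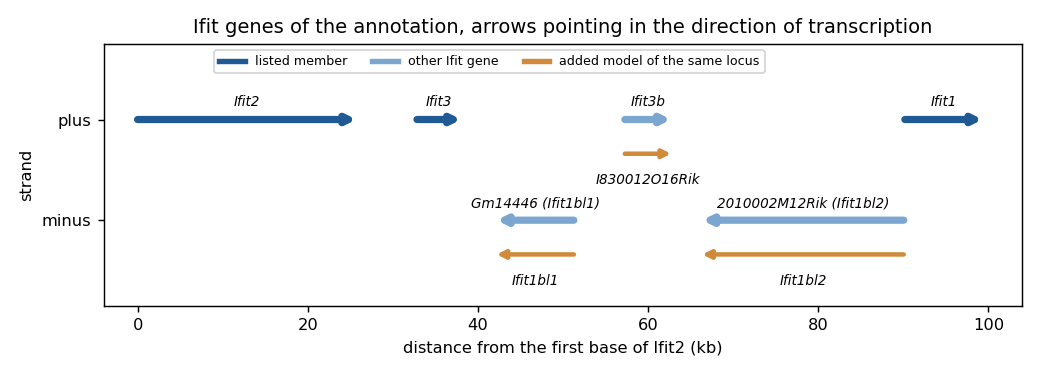
The Ifit cluster drawn to scale in kilobases from the first base of Ifit2, with the strand on the y axis and arrows in the direction of transcription. The 3 orange arrows are added models that lie on Ifit1bl1, Ifit1bl2 and Ifit3b, and none lies on Ifit1, Ifit2 or Ifit3.

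The 3 members of the cluster share a division of the coding sequence (CDS). In each, the first coding exon held 5 coding bases, that is the start codon and the next 2 bases, and the last exon held the rest. Ifit1 had exons of 117 and 2539 bases, with 5 and 1384 coding bases, for 463 codons. Ifit3 had exons of 74 and 1671 bases, with 5 and 1204 coding bases, for 403 codons. Ifit2 had exons of 313, 152 and 3353 bases, with 0, 5 and 1405 coding bases, for 470 codons. Of the 6 Ifit genes, 4 had this 5-base start, Ifit3b among them. The 2 genes on the minus strand had 32 coding bases in that exon. Among 19171 protein-coding genes of at least 2 exons, 47 had a first coding exon with 5 coding bases (0.245%), the 4 Ifit genes included.

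Isg15 had the same shape on a smaller scale. It lies on chromosome 4, minus strand, from 156199424 to 156200818. Its exons of 113 and 643 bases held 3 and 480 coding bases, so that the first exon ended with the start codon. A first coding exon of exactly 3 coding bases occurred in 310 protein-coding genes (1.62%), of which Mx1 was another. Isg15 encoded 161 codons, and 10.5% of protein-coding genes had fewer. Its spliced length of 756 bases was the shortest of the 9 genes, and 5.93% of protein-coding genes were shorter.

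At least 90% of the CDS lay in a single exon in 4 of the 9 genes, namely Ifit1, Ifit2, Ifit3 and Isg15, with 99.6%, 99.6%, 99.6% and 99.4%. The same held for 7.82% of protein-coding genes of at least 2 exons. Among the other listed interferon-stimulated genes it held for 10 of 98 (10.2%). The other 5 members were spread over more exons, with the largest share of the CDS in a single exon at 50.3% in Cmpk2, 32.1% in Rsad2, 15.2% in Usp18, 13.7% in Mx1 and 12.7% in Mx2. No member had its whole CDS in 1 exon.

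**Figure D3:**
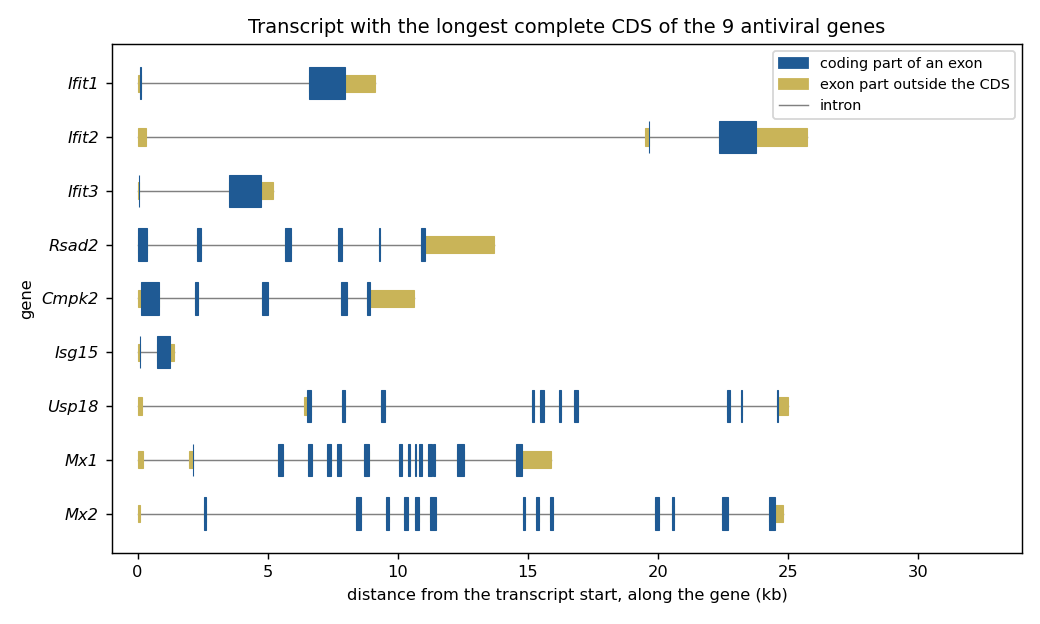
Exons of the transcript with the longest complete CDS for each gene, in kilobases from its start along the gene. Tall blue boxes are coding parts, low yellow boxes are exon parts outside the CDS and lines are introns; the Ifit genes and Isg15 show 1 wide coding box, and Usp18, Mx1 and Mx2 show many narrow ones.

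Ifit2 began differently from Ifit1 and Ifit3. Its start codon exon lay 19509 bases from the transcript start, after a noncoding exon and an intron of 19196 bases, and 85.5% of protein-coding genes had a shorter first intron. Its 5′ untranslated region measured 460 bases, against 112 in Ifit1 and 69 in Ifit3, with a median of 134 over protein-coding genes. The first introns of Ifit1 and Ifit3 measured 6483 and 3456 bases. In the same cluster 2010002M12Rik also had a noncoding first exon, with a first intron of 10783 bases and a 5′ untranslated region of 201 bases. Ifit2 also had a second transcript with a start codon, 131 coding bases and no stop codon.

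Ifit3 and Ifit3b were alike in coding length and in the bases before their starts. Both encoded 403 codons, with 5 and 1204 coding bases in their 2 exons, and their introns measured 3456 and 3432 bases. From 40 bases before the first ISRE match to 40 after the last, the 124 bases before each gene were identical at all 124 positions. Over the 300-base windows, 258 bases matched in a local alignment of 274 columns (94.2%). In the other 35 pairs of windows among the Ifit genes, Rsad2, Cmpk2 and Isg15, a global alignment matched from 46.3% to 55% of the 300 bases, against 86% for this pair. Their exons differed in length, since the first exon was 74 bases in Ifit3 and 29 in Ifit3b, and the second 1671 and 1971.

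Ifit1 was the only member with a head-to-head partner, defined as a protein-coding gene of the opposite strand whose start lies within 1000 bases. Its start and that of 2010002M12Rik lay 128 bases apart, which leaves 127 bases between the genes in the deposited annotation. Both ISRE matches of Ifit1 fall in that interval, which the RefSeq span of Ifit1bl2 enters by 84 bases. Read on the minus strand, the same 2 matches stand at -70 and -51 of the first window of Ifit1bl2. Over all protein-coding genes of chromosomes 1 to 19, X and Y, 10.6% had such a partner, so 1 of 9 is near the background. Of the list of interferon-stimulated genes, only 2 other pairs had both partners on the list, Dtx3l with Parp9 at 681 bases and Psmb9 with Tap1 at 211 bases. In both of these pairs the 2 genes overlap at their starts, whereas Ifit1 and 2010002M12Rik do not overlap.

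The remaining members stood farther from an opposite-strand coding start. Isg15 was nearest, at 2486 bases from AW011738, which points away from it. Rsad2 and Cmpk2 point away from each other with starts 12752 bases apart. Ifit3 lay 18437 bases from the start of Gm14446, which points towards it, and Ifit2 lay 23220 bases from Lipa. Mx1 and Mx2 followed at 27140 bases from Gm9242 and 30372 bases from Fam3b. Usp18 was most isolated, at 164297 bases from Mical3. The median over all protein-coding genes was 43270 bases, and 8 of the 9 genes were below it.

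**Figure D4:**
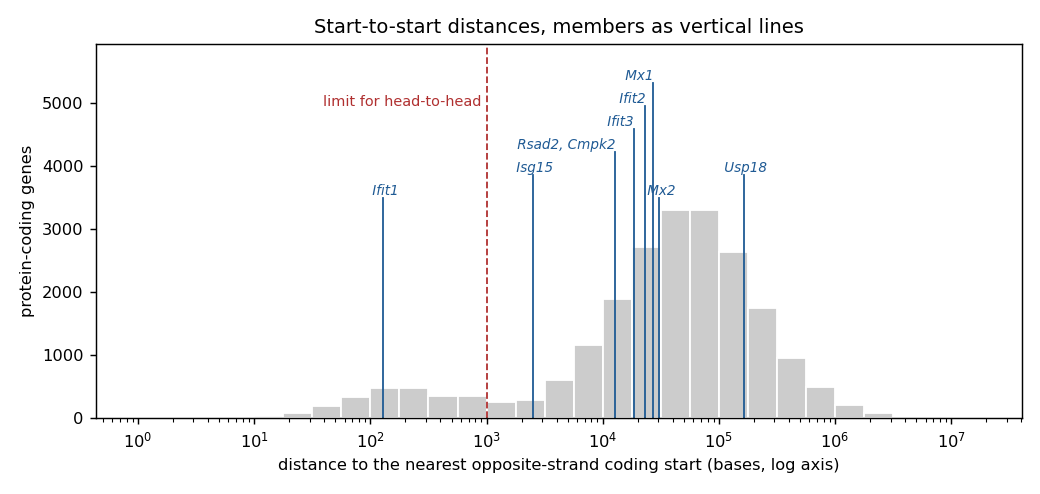
Distance from each gene's start to the nearest protein-coding start on the opposite strand (log axis), with the number of protein-coding genes as bars and the 9 members as vertical lines. The dashed line marks the 1000-base limit; Ifit1 at 128 bases is the only member to its left.

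Neighbouring interferon-stimulated genes were counted within 100000 bases, span to span. Of the 9 members, 7 had another gene of the list in reach, against 2.27% of protein-coding genes. Each of the 3 Ifit members had the 5 other Ifit genes in reach. Rsad2 had Cmpk2 and Cmpk2 had Rsad2, and Mx1 and Mx2 had each other, 72400 bases apart. Without the members on the list the count was 3, the Ifit genes, because the remaining 4 had only another member in reach. Among the other listed genes, 50 of 99 had a listed neighbour (50.5%), and the list holds whole gene families that lie in clusters.

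Isg15 and Usp18, the modifier and its protease, had no listed gene in reach. For Isg15 the nearest on chromosome 4 was Ddx58, the gene of the RNA sensor RIG-I, at 115959595 bases. For Usp18 the nearest on chromosome 6 was Herc6, which encodes the main ISG15 ligase of the mouse, at 63580769 bases. The 6 genes of the conjugation list were on chromosomes 4, 9, 2, 6 and 11, and all were protein-coding. The genes Isg15 lies between were Agrn, the gene of the synaptic organiser agrin, 1935 bases away on the same strand, and AW011738, 2485 bases away.

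Rsad2 and Cmpk2 form a pair on chromosome 12 with no other gene model between them. Rsad2 lies on the minus strand from 26442753 to 26456452 and Cmpk2 on the plus strand from 26469204 to 26479835. The coding transcript of Rsad2 had 6 exons of 382, 162, 230, 150, 33 and 2818 bases and encoded 362 codons. Cmpk2 had 5 exons of 823, 115, 202, 234 and 1824 bases and encoded 447 codons. The 3′ untranslated region measured 2653 bases in Rsad2 and 1706 in Cmpk2, and was shorter in 89.3% and 78.4% of protein-coding genes. Beyond Cmpk2 the next model of any kind lay 610401 bases away.

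Rsad2 had a further transcript annotated for nonsense-mediated decay. It holds an added exon of 435 bases between exons 2 and 3, in which the CDS stops after 50 bases, for 187 codons. Another transcript of 430 bases had no CDS. Cmpk2 had 1 transcript.

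Usp18 lies on chromosome 6, plus strand, from 121245906 to 121270916. It had 11 exons with 368 codons in 10 of them, and a noncoding first exon of 157 bases followed by an intron of 6254 bases. No member shared an exon base with another gene model on its own strand, where 13.4% of protein-coding genes did. On the opposite strand Usp18 alone did so, and 22.1% of protein-coding genes did. The partner was Gm20035, an added RefSeq model of 3 exons with no CDS.

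The overlap of Usp18 with Gm20035 followed the exon borders. Exon 3 of Gm20035 lay within exon 1 of Usp18, with the same lower end at 121245906 and its upper end 6 bases short. Exon 1 of Gm20035 contained all 255 bases of Usp18 exon 2 and passed it by 2 bases on each side. Between them the model had an exon of 5 bases that met no Usp18 exon. In all, 406 of the 1770 exon bases of Usp18 (22.9%) were shared. Reads of the 2 models cannot be told apart there without strand, and the effect on counts was not tested.

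Mx1 and Mx2 lie on chromosome 16 and point away from each other. Mx1 is on the minus strand from 97447035 to 97462907 and Mx2 on the plus strand from 97535308 to 97560900. Fam3b, a gene of the minus strand, lies between them, 8142 bases from Mx1 and 30371 from Mx2. Gm9242, a protein-coding gene of the plus strand, also starts between them, 27140 bases from the start of Mx1. Bace2 and Tmprss2, which encode proteases, follow on the far sides at 8022 and 3783 bases. Most inbred laboratory strains, C57BL/6 among them, are known to carry defective alleles of both Mx genes, that of Mx1 through loss of coding exons.

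The sources differed on whether Mx1 is coding, and both gave Mx2 a pseudogene class. The annotation gave Mx1 the class protein_coding and Mx2 the class polymorphic_pseudogene, a locus that codes in some strains and not in the reference. The RefSeq gene table lists both as transcribed_pseudogene, and the 7 other members as protein_coding in both sources. Of 21047 protein-coding genes of the annotation matched to that table by symbol, it lists 305 as a pseudogene of some kind (1.45%). Neither Mx gene had a transcript in the consensus coding set CCDS, and each of the other 7 members did. The share of all protein-coding genes with such a transcript is not given here.

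Mx1 had 5 transcripts, all with a CDS, and they parted at the 5′ end and in the middle of the gene. Mx1-201 had 15 exons and 627 codons, and its support level was 5, the lowest of the Ensembl scale. Mx1-001 had 9 exons and 397 codons, and went from the 139-base exon straight to a 77-base exon. Mx1-003, annotated for nonsense-mediated decay, had 11 exons and 309 codons, and went from a 79-base exon to the same 77-base exon. There its CDS stopped after 21 bases, with 2 exons still to follow. Mx1-002, annotated for the same fate, had 14 exons, 165 codons and the same 21-base end. Mx1-004 had 196 coding bases and no stop codon.

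The exons that set Mx1-201 apart lay in 1 intron of Mx1-003. That intron measures 1221 bases, from 97451552 to 97452772 of chromosome 16. Mx1-201 placed 4 exons of 54, 64, 138 and 148 bases wholly inside it, 404 bases in all, and its flanking exon of 89 bases also reached in. The intron after its 148-base exon measured 49 bases. An intron that short or shorter occurred in 63 of 19171 protein-coding genes of at least 2 exons (0.329%).

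Mx2 gave the exon series against which Mx1 can be read. After the start codon exon, Mx2-001 had internal exons of 193, 138, 155, 139, 199, 79, 123, 143, 159, 77 and 249 bases. Mx1-003 matched the first 6 of these lengths in order and then the 77-base exon, 7 of 11 in all. Between its 79-base and 77-base exons it had no counterpart of the 3 exons of 123, 143 and 159 bases, which sum to 425. The same 2 exons of Mx2 lay 5626 bases apart, against the 1221 bases in Mx1. Mx1-201 matched the first 5 lengths in order, and its last coding exon held 228 coding bases, as in Mx2. These are matches of length, and the sequences of the exons were not compared.

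**Figure D5:**
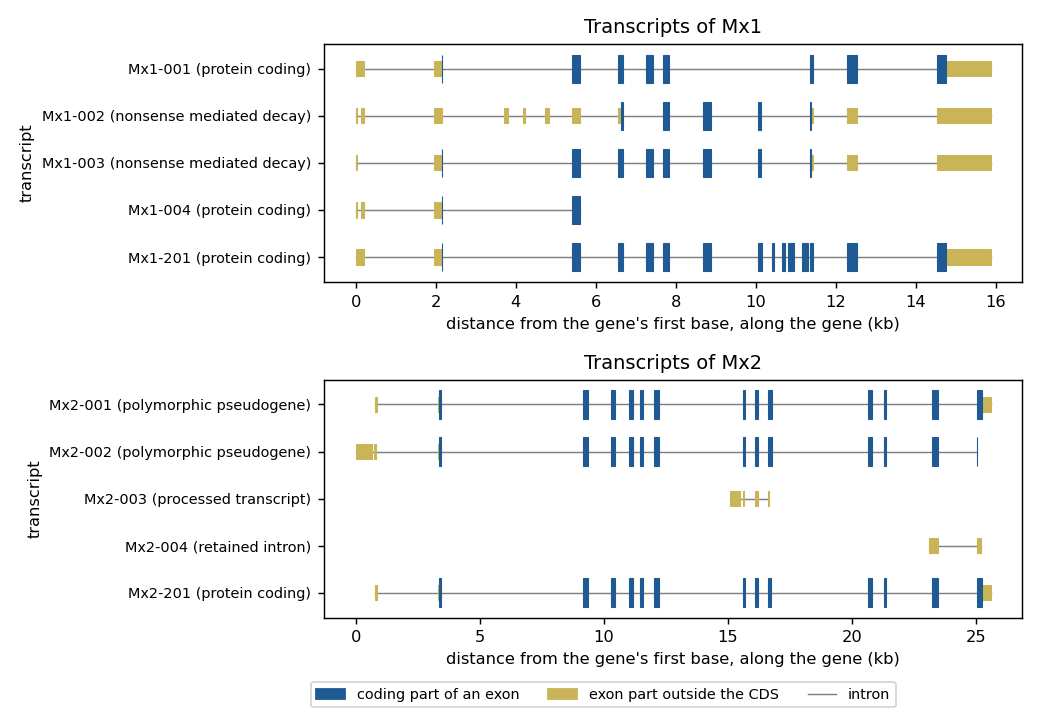
Exons of all transcripts of Mx1 (upper panel) and Mx2 (lower panel) in kilobases from the first base of each gene, along the gene. Blue marks coding parts and yellow exon parts outside the CDS. Between 10 and 12 kb, the Mx1-201 exons of 54, 64, 138 and 148 bases occur in none of the other 4 Mx1 transcripts. The coding boxes on either side of these exons overlap coding exons of other Mx1 transcripts.

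The 2 transcripts of Mx2 with both a start and a stop codon differed by 1 coding base. Mx2-001, of the class polymorphic_pseudogene, had start and stop codon lines and 1966 coding bases, which leaves 1 base over after whole codons. Mx2-201, of the class protein_coding, had 1965 coding bases and 655 codons. The difference came from exons 10 and 11, since Mx2-001 ended exon 10 by 3 bases later and began exon 11 by 2 bases later. The coding parts of their other exons had equal lengths. Among 42356 Ensembl transcripts with both codon lines, 141 had a CDS that is no multiple of 3 (0.333%), and 7 of these belonged to 7 different polymorphic pseudogenes. Mx2 also had a transcript with 1739 coding bases and no stop codon, and 2 transcripts without a CDS.

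Within the dynamin family, the longest complete CDS models of the Mx genes had fewer codons and fewer exons. The 627 codons of Mx1-201 and 655 of Mx2-201 stood below the range of 716 to 978 in Dnm1, Dnm2, Dnm3, Dnm1l, Opa1, Mfn1 and Mfn2. These 7 genes had 18 to 30 exons, against 15 in Mx1 and 14 in Mx2, and all were protein-coding. Over all 9 members the median spliced length was 2656 bases, beside 2371.5 bases over 21582 protein-coding genes with a complete CDS.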

How the data were processed

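The members and the gene lists were chosen with earlier results of these data known. The deposited file is a gene annotation of 1544831 lines; its values are start and end positions counted from 1 (unit: other), and 0 columns hold values per sample. Per the submitters' processing notes, the build is mm10 and the read aligner TopHat2 version 2.1.1 was used; the sources used here do not give the steps by which the authors made the annotation. Models were read with Python 3.11.15 and numpy 2.4.6, and windows were aligned with Biopython 1.88 (match 1, mismatch -1, gap -3 to open and -1 to extend). Lines of RefSeq or unknown source are called added models. A gene is described by its transcript with the longest complete CDS; lengths leave the stop codon out of CDS and untranslated regions. All 9 members, their overlapping and nearest neighbours, the Ifit genes and the lists were named by rule; other genes, and the search for exon lengths, were chosen after values were seen. The code was tested on simulated models and returned all 500 planted exon structures, 199 start distances, 300 motifs and 300 overlaps. The planned comparison of Ifit protein sequences was not run.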

Additional observations from a re-analysis of the deposited data

How the results depend on the processing

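No paired analysis was possible because the results come from gene models and no values per sample were used. Of 19 alternatives, 14 kept the value within 1.5 times of the one given. With all CDS bases required in 1 exon, the count of members fell from 4 to 0, and 5.61% of protein-coding genes passed. With starts allowed within 5000 bases, 2 members had a head-to-head partner (15.1% of protein-coding genes). With the adjacent upstream coding gene on the opposite strand at any distance, an alternative chosen after seeing the data, 6 members had one (48.6%). With the members taken off the list, 3 had a listed neighbour (2.17%). Counting either strand, 1 member shared exon bases. Of protein-coding genes, 22.1% did so on the opposite strand and 13.4% on the same strand, and the share for either strand is not given here. The ISRE core followed by C was found in 3 members (0.944% of genes), and with 1 mismatch in 5 (38.9%). Identity between Ifit proteins was not run. Promoter windows covered 6 of the 9 genes, and symbols set which RefSeq entries were matched.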
